A study of Rattus norvegicus with 6 samples.

Results

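The long tiled stretches are the places where this rat array carries an almost unbroken row of probes, so that the methylation signal can be followed along many kilobases instead of at single promoters or islands. Probes on 1 chromosome of the rn4 build were joined where the gap between them was at most 1000 bp, and joined regions of more than 100 probes on chr1 to chr20 were kept. Of 16123 joined regions, 89 held more than 100 probes. Of these, 8 lay on chrX and 7 in loci on chr1 and chr6 that were left out, and 74 stretches remained. They held 14050 of 172669 probes, or 8.14%. The rule used positions only and no measured value, but it was set with earlier results of these data known. Just inside the threshold were 7 stretches of 101 to 105 probes, and just outside were 2 regions of 98 probes.

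The samples were hearts, labelled cardiac muscle, of newborn Sprague-Dawley rats at day 1. In the control group (3 arrays) the pregnant dams received saline, and in the PM2.5 group (3 arrays) they received a suspension of fine airborne particulate matter, each as 30 µL dripped into the trachea under ether anaesthesia. The labels name more than 1 PM2.5 concentration but give none for a sample, and neither pup sex nor pooling is given. The 3 samples of a group are called biological replicates. Nothing says that they came from separate litters, so p-values measure only the spread between these samples. A heart holds several cell types, and a change in the share of a cell type cannot be told apart from a change of methylation within cells.

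DNA methylation in mammals sits mainly on cytosines followed by guanine (CpG sites). Most of the genome is methylated where such sites are sparse, and CpG-rich islands at gene starts are usually free of it. In methylated DNA immunoprecipitation (MeDIP), fragments that carry methylated cytosines are pulled down with an antibody and compared with input DNA that was not enriched, so the ratio rises both with methylation and with the number of CpG sites in a fragment. It is a relative measure, not a percentage of methylated sites. On each array the pulled-down DNA was in Cy5 and the input of the same sample in Cy3. The level used here is log2 of Cy5 over Cy3, set to 0 at the median probe of its own array. A level of -1 thus means that the ratio stood 1 log2 unit below that array's typical probe. The files pair probes with positions and not with genes or probe sequences, and gene annotation and sequence of the rn4 build were not used here.

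The stretches were 19.3 to 97.9 kb long, with a median of 36.2 kb, and together spanned 2845 kb. They held 101 to 494 probes each, with a median of 175.5. A group of 19 stretches measured 49 to 52 kb. They lay on 17 chromosomes, with at most 8 on 1 chromosome, and 20 of them formed 10 pairs of neighbours less than 20 kb apart. Within a stretch, probe starts were a median of 164 bp apart. The largest was chr10:65851074-65948944 with 494 probes, followed by chr17:22069800-22160113 with 411 and chr1:135241889-135304142 with 334. Probes were 45 to 60 nt long, and those in stretches averaged 50.5 nt against 49.2 nt elsewhere on the array.

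The input channel of every array stood well above background for 10730 of the 14050 stretch probes. Of these, 6105 also carried no mark of an uneven or outlying spot on any array, and they are the probes used for stretch and bin means. The limiting array was PM2.5 replicate 1, where 31.4% of stretch spots were marked, against 0.384% to 1.92% on the others. The pulled-down channel was well above background for 81.5% to 88.9% of kept stretch probes, lowest on PM2.5 replicate 1. Scanning took place on 3 days, with control 1 and PM2.5 3 on the first, control 2, control 3 and PM2.5 2 on the second, and PM2.5 1 alone on the third. Control 2 and control 3 shared a slide.

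Seen as a whole, the long stretches lay below the array's typical probe in both groups and lay less far below it in the PM2.5 group. Averaged over the 74 stretches, the level was -0.69, -0.80 and -0.84 on control arrays 1, 2 and 3. It was -0.27, -0.55 and -0.58 on PM2.5 arrays 1, 2 and 3. Every PM2.5 array lay above every control array, and PM2.5 1 stood highest. The means were -0.78 ± 0.077 (SD, n = 3) and -0.47 ± 0.171 (SD, n = 3), a difference of 0.31. The exact two-sided permutation test gave p = 0.1, the smallest that 3 arrays against 3 can give. The difference within the first scanning day was 0.11 (PM2.5 3 minus control 1), and within the second it was 0.27 (PM2.5 2 minus the mean of control 2 and 3).

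Most of that difference was shared with the rest of the array. The other regions also lay, on average, below the typical probe on every array. The median change over the stretches was 0.31, against 0.24 over all 14786 regions tested. The stretches minus the other regions gave -0.163, -0.202 and -0.223 on control arrays 1 to 3 and -0.138, -0.139 and -0.128 on PM2.5 arrays 1 to 3. The groups did not overlap in this gap either, which narrowed by 0.061 (exact two-sided permutation test, p = 0.1, the smallest possible). Within the scanning days the narrowing was 0.034 and 0.073. With each probe length centred on its own median the narrowing was 0.0084 (exact permutation p = 0.4). Set against the 146 regions of 21 to 100 probes, the next largest on the array, the stretches did not lie lower, and their difference from those regions moved by 0.0046 (exact permutation p = 1), from 0.014 ± 0.020 (SD, n = 3) in controls to 0.019 ± 0.019 (SD, n = 3) in the PM2.5 group. With a common centring, on the probes that no array had marked, the mean change of the stretches went from 0.31 to 0.12, and the median change over all regions from 0.24 to 0.05.

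**Figure D1:**
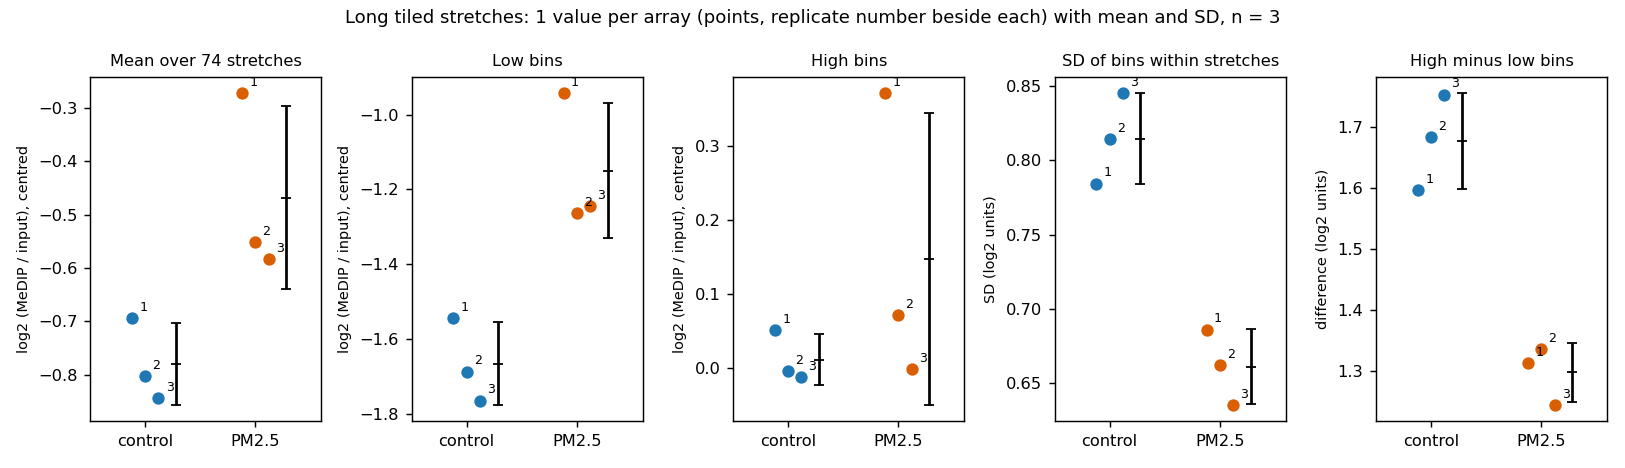
One value per array for the 74 stretches, with replicate numbers beside the points and the group mean and SD (n = 3) to the right of each group. Vertical axes are log2 of MeDIP over input, centred on each array's median probe, or differences and SDs in the same log2 units, and none starts at 0. The groups do not overlap in the mean, the low bins (the lowest class of 3 in each stretch), the SD within stretches or the gap between high and low bins, and they overlap in the high bins.

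All 74 stretches had a higher mean level in the PM2.5 group, and 3 of them rose past an adjusted p of 0.05 (limma with Benjamini-Hochberg adjustment over 14786 regions). In all regions 9.79% rose and 0.0473% fell, so the share of stretches called was not above the background. With the slide as a random block, which takes in that control 2 and control 3 shared one, none of the 3 passed (limma adjusted p = 0.0713, 0.0821 and 0.104). No stretch fell, and before adjustment the same limma fit gave 38 higher and 0 lower with a p under 0.05. In 64 of the 74 stretches every PM2.5 array lay above every control array, where 37.9% of all regions did so. The 2 shares are not of like precision, since a stretch mean used 31 to 191 probes and a region needed only 2. The count of 74 higher means was 62 with the common centring, and 66 with the authors' deposited values.

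The 3 stretches past the threshold were also the ones with the largest changes of the 74. On chr5:53440004-53468735 the level was -1.47, -1.61 and -1.72 on control arrays 1 to 3 and -0.67, -0.95 and -1.06 on PM2.5 arrays 1 to 3. This stretch is 28.7 kb long, with 121 probes of which 53 were used. The groups did not overlap, the change was 0.71 with an SE of 0.149, and limma's adjusted p was 0.0291.

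Its neighbour chr5:53481662-53504857 begins 12.9 kb further on. There the level was -1.41, -1.59 and -1.79 on control arrays 1 to 3 and -0.82, -0.99 and -1.08 on PM2.5 arrays 1 to 3. The groups again did not overlap, with a change of 0.64, an SE of 0.148 and an adjusted p of 0.0332 (limma). The third, chr14:109633735-109653634, holds 101 probes, the fewest of the 74. Its level was -1.48, -1.48 and -1.58 on control arrays and -0.80, -1.08 and -1.14 on PM2.5 arrays, again without overlap, and the change was 0.51 with an SE of 0.142 and an adjusted p of 0.0476 (limma).

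These 3 stretches had among the lowest control levels of the 74 and among the longest probes, with means of 55.2, 55.4 and 55.9 nt. With each probe length centred on its own median, the changes were 0.32, 0.24 and 0.09, and limma's adjusted p was 0.233, 0.3 and 0.721. With the authors' deposited values the changes were 0.21, 0.20 and 0.09 (limma adjusted p of 0.513, 0.511 and 0.685). Without control 2 or without control 3 no stretch passed, although the 3 changes stayed between 0.47 and 0.71.

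Across the 74 stretches the control level ran from -1.60 to -0.04, with a median of -0.77, and the change ran from 0.08 to 0.71. The lower a stretch lay, the larger its change: the correlation of change with control level was -0.92, and with the mean of both groups, which does not favour the control values, it was -0.88. Probe length moved with both, at a correlation of -0.90 with the control level and 0.88 with the change. All 3 quantities share the same probes and arrays, so these correlations over 74 stretches are descriptions. The part of probe length in the changes was not tested separately from the level.

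**Figure D2:**
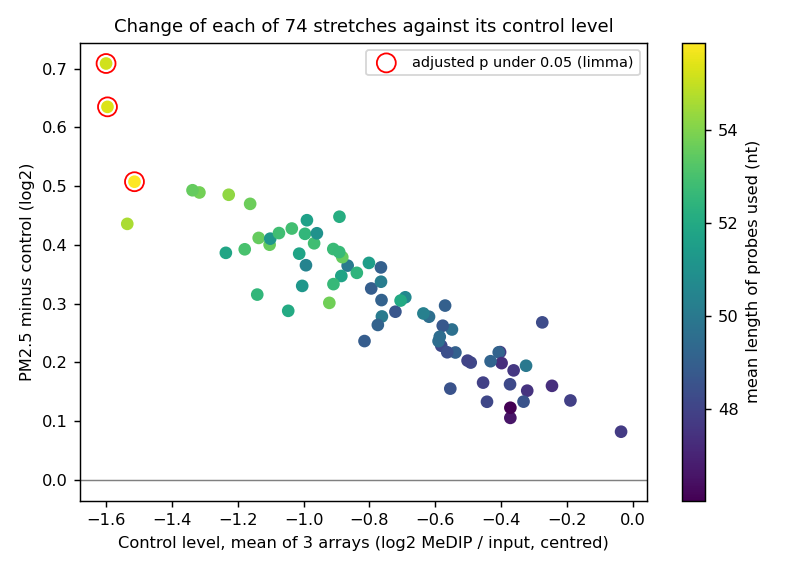
Each point is 1 of 74 stretches: horizontal axis, its mean level on the 3 control arrays (log2 MeDIP over input, centred); vertical axis, PM2.5 minus control (log2); colour, the mean length in nt of the probes used. All points lie above 0, the changes grow from 0.08 to 0.71 towards low control levels and long probes, and the 3 circled stretches have a limma adjusted p under 0.05.

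At the other end, chr3:169985388-170004639 had the highest control level and the smallest change. Its level was -0.02, -0.03 and -0.06 on control arrays 1 to 3 and 0.21, 0.00 and -0.07 on PM2.5 arrays 1 to 3. PM2.5 1 and 2 lay above every control and PM2.5 3 below every control, so the groups overlapped, and the change was 0.08 with an SE of 0.135 (limma adjusted p = 0.693).

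The 15 stretches with the most probes gave no call, with changes of 0.14 to 0.49. The largest, chr10:65851074-65948944, had a mean of -0.49 ± 0.049 (SD, n = 3) in controls and -0.29 ± 0.165 (SD, n = 3) in the PM2.5 group. The second, chr17:22069800-22160113, went from -1.24 ± 0.095 to -0.85 ± 0.168 (SD, n = 3 each). The largest change among these 15 was on chr7:29077660-29127584, at -1.32 ± 0.124 against -0.83 ± 0.202 (SD, n = 3 each, limma adjusted p = 0.0568). In 14 of the 15 every PM2.5 array lay above every control array, the exception being chr7:123650806-123701234.

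Neighbouring stretches tended to lie at like levels. Over the 10 pairs less than 20 kb apart, the 2 control levels differed by a median of 0.17, where all pairs of the 74 differed by a median of 0.35. The changes of neighbours differed by a median of 0.06 and at most 0.11, against a median of 0.12 over all pairs. The pair on chr5 described above was the closest, at -1.60 and -1.60, with probes of 55.15 and 55.37 nt on average. The pair on chr8 that begins at 54422053 and 54453327 lies 1.27 kb apart and differed most, at -1.05 and -0.56. Its probes averaged 52.03 and 48.44 nt. The part of probe length in the likeness of neighbours was not tested.

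To follow the signal along the stretches, usable probes were averaged in bins of 1 kb counted from each start, and bins with at least 2 usable probes were tested. Of 2876 possible bins 1901 were tested, 9 to 58 in a stretch, with a median of 3 usable probes. Of these, 849 rested on 2 probes.

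Within a stretch the level was uneven, with narrow dips and peaks that recurred from array to array. Taking each bin's distance from its own stretch mean, profiles of 2 arrays correlated at 0.82 to 0.97 over the 1901 bins. Without PM2.5 1 the lowest correlation was 0.89, and the mean control and PM2.5 profiles correlated at 0.95. The same probes enter every array, and probe length alone correlated at -0.46 with the control profile. Averaged over the 6 arrays, 165 bins in 65 stretches lay more than 1 log2 unit below their own stretch mean, and 95 bins in 49 stretches lay more than 1 above it. The deepest dip was -3.11 and the highest peak 1.89.

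**Figure D3:**
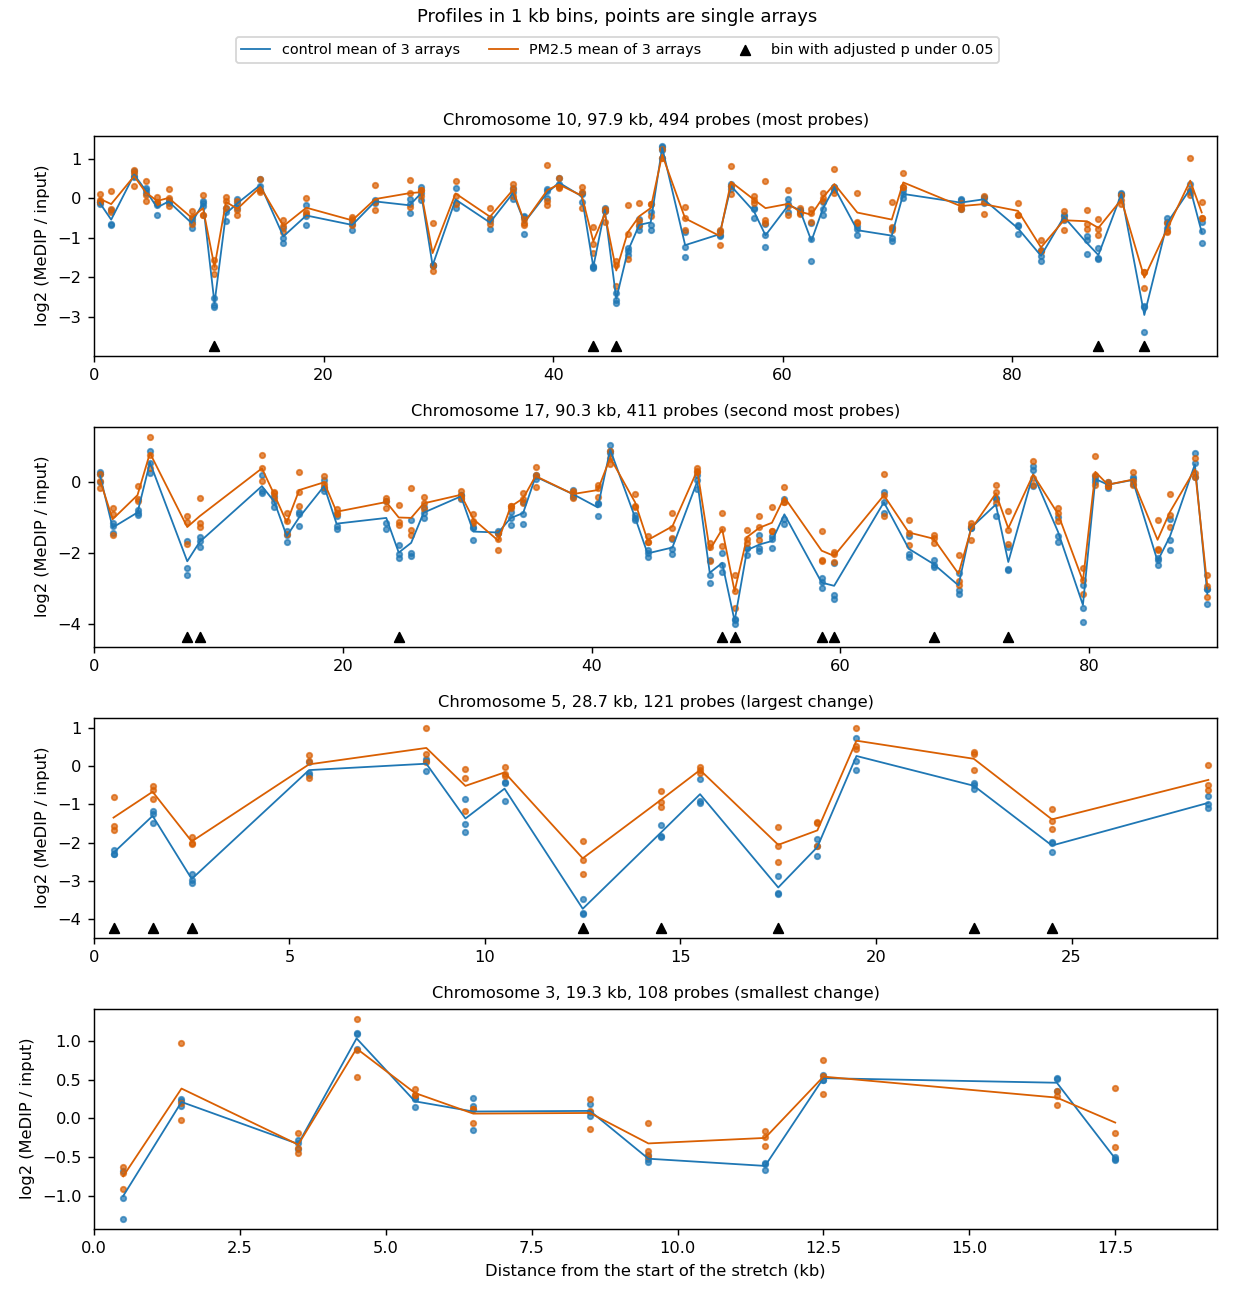
Profiles of 4 stretches: those with the most and second most probes, the largest change and the smallest change. The horizontal axis is the distance from the start of the stretch in kb, and the vertical axis is log2 MeDIP over input in 1 kb bins (points, single arrays; lines, means of 3 arrays, joined across untested bins; triangles, bins with a limma adjusted p under 0.05). Dips and peaks fall at the same positions in both groups, the marked bins are mostly dips, and in the stretch on chromosome 5 the PM2.5 line lies above the control line at every bin.

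The highest bin, at chr10:65900074-65901073 in the middle of the largest stretch, had a level of 1.24, 1.34 and 1.30 on control arrays and 1.03, 1.26 and 1.04 on PM2.5 arrays. The groups overlapped in this bin, whose 3 probes are 45 nt long and stood well above background. The next highest were chr1:134600358-134601357 (control 1.20 ± 0.143, PM2.5 1.13 ± 0.375, SD, n = 3) and chr5:108526445-108527444 (control 1.30 ± 0.042, PM2.5 1.00 ± 0.319, SD, n = 3). In all 6 of the highest bins the groups overlapped.

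The lowest bin, at chr18:16247634-16248633, had a level of -4.64, -4.57 and -4.53 on control arrays and -3.14, -3.63 and -3.13 on PM2.5 arrays. Here the groups lay well apart (limma adjusted p = 0.0119), and of its 3 probes 2 were well above background in each group, so the level also holds a probe at background. Its stretch, chr18:16245634-16269562, had the most uneven control profile of the 74, with an SD of 1.43 between bins. In 3 of the 6 lowest bins no probe stood well above background in the pulled-down channel on any array of either group, so that their levels are bounds.

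The profile was short-ranged at the level of single probes. Usable probes in a stretch whose midpoints were up to 200 bp apart correlated at 0.22 in the control means (1961 pairs, after removal of each stretch mean), those 200 to 400 bp apart at 0.11 and those 800 to 1000 bp apart at 0.0071. The PM2.5 means gave 0.21, 0.11 and 0.0082. Neighbouring 1 kb bins correlated at 0.03 in controls (1239 pairs). The authors' deposited values gave 0.82, 0.42 and 0.02 over the same probe pairs and classes, so the deposited values of probes close together were more alike than the scanner ratios were. Pairs share probes, so these are descriptions.

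**Figure D4:**
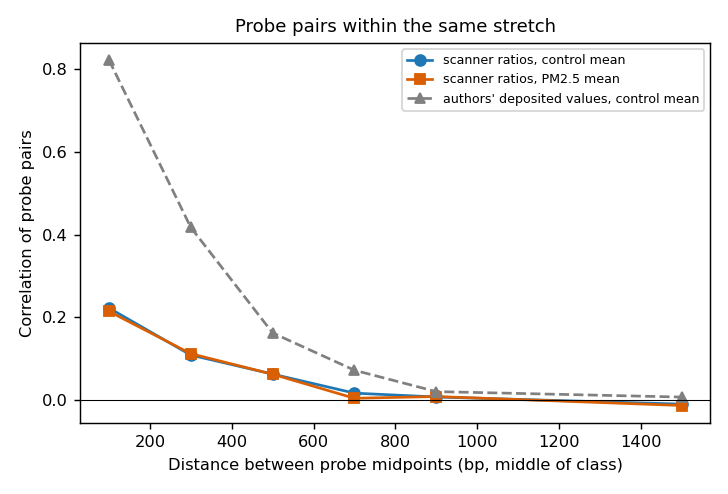
Correlation between usable probes of the same stretch against the distance between their midpoints in bp, after each stretch mean was removed. Control and PM2.5 scanner ratios fall from 0.22 and 0.21 to near 0 within 1000 bp, and the authors' deposited values start at 0.82.

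On average over the stretches measured, the ends lay slightly above the interiors. Bins within 2000 bp of an end exceeded the other bins by 0.078, 0.103 and 0.088 on control arrays and 0.083, 0.075 and 0.051 on PM2.5 arrays. The groups overlapped, and the difference of -0.020 between them (exact two-sided permutation p = 0.2) turned to 0.0071 with 2 kb bins, as it did, by up to 0.0152, under 4 other settings. In the 19 stretches of 49 to 52 kb, the 10 kb around the centre, 1 of 7 distance classes, lay below the stretch mean. It lay at -0.13 ± 0.021 in controls and -0.08 ± 0.029 in the PM2.5 group (SD, n = 3). The exact two-sided permutation test of the difference between the groups gave p = 0.1, the smallest possible. The outermost class on the left, 20 to 30 kb from the centre, lay at 0.13 and 0.11, and the one on the right at 0.01 and -0.01. In controls the classes between lay at -0.05 and -0.07 on the left and at 0.10 and 0.09 on the right. The profile was thus not symmetric around the centre. The same probes enter every array, so these SDs and p-values measure arrays only. Whether ends or centres differ beyond the spread between stretches was not tested.

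The profiles were flatter in the PM2.5 group. The SD of bins around their own stretch mean was 0.784, 0.814 and 0.846 on control arrays 1 to 3 and 0.686, 0.662 and 0.635 on PM2.5 arrays 1 to 3. No PM2.5 array reached a control array, and the means were 0.815 ± 0.031 and 0.661 ± 0.026 (SD, n = 3 each). The difference of -0.154 gave p = 0.1 in the exact two-sided permutation test, the smallest possible, and it was -0.149 and -0.168 within the first and second scanning days. The mean SD was lower in the PM2.5 group in all 74 stretches, by a ratio of 0.658 to 0.966 with a median of 0.808. In 53 of the 74 the SD was lower on every PM2.5 array than on every control array. This held for 55.7% of the 167 regions with at least 5 tested bins, which include the 74 stretches. The shares are not of like precision, since a stretch had 9 to 58 tested bins and a region needed only 5. The regions of 21 to 100 probes had an SD of 0.794 ± 0.031 in controls and 0.667 ± 0.036 in the PM2.5 group (SD, n = 3 each).

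The size of the flattening depended on the normalization and on the dim probes. Scale and quantile normalization, which equalise the spread of the arrays, left -0.047 and -0.019 of the -0.154 (exact permutation p = 0.8 for each). Among probes bright in both channels (well above background on every array) it was -0.067 (exact permutation p = 0.3), with 0.470, 0.527 and 0.546 on control arrays and 0.542, 0.398 and 0.401 on PM2.5 arrays, so that PM2.5 1 lay among the controls. The authors' deposited values gave -0.015 (exact permutation p = 0.3). Single probes of 45 nt had an SD of 0.731, 0.786 and 0.806 on control arrays and 0.809, 0.622 and 0.620 on PM2.5 arrays (exact permutation p = 0.4), where PM2.5 1 was the highest of all. Single probes of 60 nt had an SD of 1.54, 1.48 and 1.56 against 1.21, 1.33 and 1.28, without overlap (exact permutation p = 0.1, the smallest possible).

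With each array centred on its own median probe, the flattening was mainly a rise of the low bins. The bins of each stretch were divided into 3 classes, low, middle and high, by their mean over all 6 arrays, which gave 609, 683 and 609 bins. The low bins lay at -1.54, -1.69 and -1.76 on control arrays and -0.94, -1.26 and -1.24 on PM2.5 arrays, without overlap (change 0.52, exact permutation p = 0.1, the smallest possible). This change was 0.28 with scale normalization (exact permutation p = 0.6) and 0.09 with the authors' deposited values (exact permutation p = 0.3). Among probes bright in both channels it was 0.22 (exact permutation p = 0.1). Only 133 of the 609 low bins had every probe well above background in both groups. The high bins lay at 0.051, -0.003 and -0.012 on control arrays and 0.372, 0.072 and -0.0006 on PM2.5 arrays. These groups overlapped (change 0.14, exact permutation p = 0.2), and the change turned to -0.05 with the common centring, -0.05 with loess and -0.04 with each probe length centred. The gap between high and low bins narrowed from 1.68 ± 0.078 to 1.30 ± 0.048 (SD, n = 3 each, exact permutation p = 0.1), and it narrowed under each of these settings. The change of the gap was -0.15 with scale normalization (exact permutation p = 0.6) and -0.06 with the authors' deposited values (exact permutation p = 0.2). Among probes bright in both channels the gap changed by -0.16 (exact permutation p = 0.2). Probes of 45 nt in the stretches had a mean of -0.13 ± 0.007 in controls and -0.04 ± 0.189 in the PM2.5 group (exact permutation p = 0.7), and probes of 60 nt -1.87 ± 0.138 and -1.26 ± 0.188 (exact permutation p = 0.1; SD, n = 3 each).

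**Figure D5:**
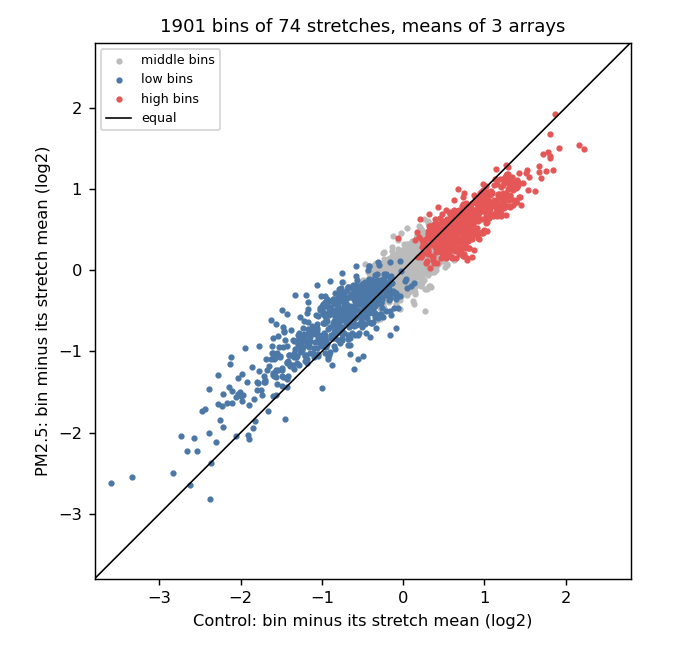
Each of the 1901 tested bins as its distance from its own stretch mean (log2), control mean on the horizontal and PM2.5 mean on the vertical axis, coloured by class of level within the stretch, with the line of equality. The cloud is flatter than the line: low bins lie mostly above it and high bins mostly below it, as in the SD of 0.815 against 0.661.

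Bin by bin, 229 of the 1901 tested bins rose and none fell (limma, adjusted p under 0.05 over 22129 bins of the array). Before adjustment 676 were higher and 7 lower with a p under 0.05. Over all bins 11.0% rose and 0.0587% fell, so the stretches lay close to the background at 229 of 1901. Their median bin change was 0.29, against 0.24 over all bins. Without control 2 or without control 3 the count was 0, and it was 0 with each probe length centred, under normexp, scale and quantile normalization and with the authors' deposited values. Among probes bright in both channels 12 of 1080 bins rose. Falls appeared under other scalings: loess gave 82 rises and 14 falls, the common centring 85 and 4, and the scanning day as a block 381 and 9.

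Of the 229 risen bins, 183 were among the 609 low bins, 42 among the 683 middle bins and 4 among the 609 high bins. Their differences ran from 0.51 to 1.46 with a median of 0.78, many of them over probes at background, and their median control level was -1.97 against -0.65 over all tested stretch bins. A probe counts here as well above background in a group if its pulled-down signal was so on at least 1 of that group's arrays. In 27 of the risen bins no probe was well above background in the controls, and in 21 of these none was in either group. In another 27 all probes were well above background in both groups. The risen bins were spread over 61 stretches with 1 to 9 in each, and 13 stretches had none. There were 26 runs of at least 2 risen neighbours, the longest of 3 bins at chr5:53440004-53443003, where the mean went from -2.17 to -1.33.

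The largest rise was at chr9:22160657-22161656, where the level was -2.70, -2.72 and -2.79 on control arrays and -0.77, -1.51 and -1.57 on PM2.5 arrays. The groups lay far apart (limma adjusted p = 0.0137), but of its 2 usable probes only 1 was well above background in each group, so the difference of 1.46 between the bin means is not a measured size. Over the alternatives that kept the bin it ran from 0.40, with the authors' deposited values, to 1.598, without PM2.5 3, and it passed the threshold in 11 of 19. The bin at chr9:19377561-19378560 had -2.90, -3.30 and -3.46 on control arrays and -1.39, -2.14 and -1.94 on PM2.5 arrays, without overlap (limma adjusted p = 0.0141). At chr11:16417473-16418472 the level went from -2.54 ± 0.343 to -1.22 ± 0.187 (SD, n = 3 each, limma adjusted p = 0.0141), and at chr7:110975411-110975778, the last bin of its stretch, from -3.16 ± 0.080 to -1.81 ± 0.531 (SD, n = 3 each, limma adjusted p = 0.0156). In these 3 bins too only 1 of 2 probes was well above background in each group. With the authors' deposited values the 3 bins had differences of 0.43, 0.39 and 0.50, none past the threshold (limma adjusted p = 0.463), and under normexp 0.78, 0.53 and 0.77 (limma adjusted p = 0.126, 0.132 and 0.126). The other 4 of the 8 largest rises lay on chr13, chr8, chr3 and chr5 and had no probe well above background in the controls, so they are given without a size.

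No bin fell past the threshold, and the 8 with the smallest unadjusted p in that direction among bins of at least 3 usable probes had adjusted p-values of 0.111 to 0.335 (limma). The first, chr5:172898186-172899185, had -0.02, -0.01 and 0.02 on control arrays and -0.43, -0.31 and -0.38 on PM2.5 arrays. The groups did not overlap, and the change was -0.37 with an SE of 0.147 (unadjusted p = 0.0273, adjusted p = 0.111, limma). This bin fell past the threshold in 2 of 21 alternatives. These were loess, by -0.64 (limma adjusted p = 0.042), and the common centring, by -0.56 (limma adjusted p = 0.0492). It did not pass with the slide as a random block (limma adjusted p = 0.21) or with the authors' deposited values, at -0.22 (limma adjusted p = 0.501). Of these 8 bins, 3 lay in chr1:135241889-135304142, at 135244889, 135245889 and 135295889. The last had 0.53, 0.89 and 0.81 on control arrays and 0.40, 0.39 and 0.31 on PM2.5 arrays, also without overlap. Of these 8 bins, 6 were high bins of their own stretch.

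Testing the shape of the profile removes any shift common to a stretch, and with it the centring of the arrays. Of the 1901 bins, 22 rose and 2 fell relative to their own stretch mean (limma, adjusted p under 0.05), and 207 and 212 did so at an unadjusted p under 0.05. Over the 3000 bins of all regions with at least 5 tested bins, 1.17% changed and 1.07% rose (3 bins fell), and most of those 3000 bins are the stretches' own. All 22 risen bins lay below their stretch mean in the controls, with a median of -1.55, and both fallen bins lay above it. The change and the control distance share the control arrays. Leaving out PM2.5 1 gave 51 bins, leaving out PM2.5 2 gave 6, PM2.5 3 gave 1 and control 2 or control 3 gave 0.

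The fall with the smallest p was at chr5:108526445-108527444, a peak of its stretch and the third highest bin by level. It lay above the stretch mean by 2.11, 2.22 and 2.34 on control arrays and by 1.65, 1.41 and 1.39 on PM2.5 arrays. The groups did not overlap, and the peak was lower by -0.74 with an SE of 0.137 (limma adjusted p = 0.0308). A second peak of the same stretch, at chr5:108534445-108535444, stood 1.39 ± 0.128 and 0.85 ± 0.049 above the mean (SD, n = 3 each) and missed the threshold (limma adjusted p = 0.0683). The other fall past the threshold was chr5:172898186-172899185, at 0.73, 0.92 and 0.89 on control arrays and -0.05, 0.26 and 0.29 on PM2.5 arrays. There the change was -0.68 with an SE of 0.141 (limma adjusted p = 0.0459). With the slide as a random block neither fall passed (limma adjusted p = 0.0974 and 0.116), and among probes bright in both channels they were -0.49 and -0.41 (limma adjusted p = 0.149 and 0.187).

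The rises in shape were at bins that lay below their stretch mean in the controls. Most of these bins held a probe that was not well above background in at least 1 group. At chr9:19377561-19378560 the distance from the stretch mean was -1.92, -2.17 and -2.26 on control arrays and -0.87, -1.28 and -1.05 on PM2.5 arrays, without overlap (limma adjusted p = 0.0174), with 1 of 2 probes well above background in each group. At chr1:135225149-135226148 it was -0.97, -1.54 and -1.50 against -0.58, -0.34 and -0.0002, and at chr1:135252889-135253888 it was -2.13, -2.07 and -2.62 against -1.24, -1.36 and -1.27. Neither overlapped (limma adjusted p = 0.0289 and 0.0219). In the former 1 of 2 probes was well above background in the controls and both in the PM2.5 group. In the latter 1 of 2 probes was well above background in the controls and none in the PM2.5 group. With the slide as a random block neither chr1 bin passed (limma adjusted p = 0.085 and 0.0905), while the chr9 bin did (limma adjusted p = 0.0445). Each chr1 bin passed in 5 of 19 alternatives, and the chr9 bin in 10 of 19. With marked spots kept, the change at chr1:135252889-135253888 was 0.24 (limma adjusted p = 0.229). Of the 22 risen bins, 16 rested on 2 usable probes and 5 had no probe well above background in the controls. Only 2 of the 22 had every probe well above background in both groups. Among probes bright in both channels, 2 of 1073 profile bins rose.

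At the level of single probes, 158 of 10715 tested stretch probes rose and none fell (limma, adjusted p under 0.05 over 135548 probes), and before adjustment 1892 were higher and 225 lower with a p under 0.05. Over all probes 1.30% rose and 0.00590% fell, and the median change was 0.11 in the stretches against 0.05 over all. Without control 2, control 3, PM2.5 2 or PM2.5 3 the count was 0. Of the 5 rises with the smallest p, 4 had a pulled-down signal that no control array read well above background. The remaining one, at chr1:134572011-134572067 and well above background on 1 control and 2 PM2.5 arrays, went from -1.65, -1.80 and -1.81 to -0.45, -0.49 and -0.54 (limma adjusted p = 0.0265).

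Among the falls, the probe with the smallest p was at chr10:84959889-84959937, with -0.26, 0.04 and -0.06 on control arrays and -1.16, -0.87 and -0.77 on PM2.5 arrays. It was well above background on all arrays, and the groups did not overlap (change -0.84, limma adjusted p = 0.0553). The next, at chr17:22081587-22081631 in the second largest stretch, had 1.76, 1.76 and 1.83 against 0.97 and 0.88 on PM2.5 2 and 3, its spot on PM2.5 1 being marked and left out (limma adjusted p = 0.0563).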

How the data were processed

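MeDIP-chip was read on 6 two-colour arrays, 3 per group, grouped by the labels' descriptions. The deposited intensity values come from the authors' scans. Feature Extraction, version 11.0.1.1 in the file headers, subtracted background, detrended the signal spatially and normalized the dyes by a linear factor. Ratios of processed signals (Cy5 over Cy3, roles per the labels) were taken as log2 and centred on each array's median over kept, unmarked probes. Kept probes had input well above background on all 6 arrays, and spots marked as non-uniform or population outliers were left out. Regions and bins of 1 kb needed 2 usable probes and profiles 5 bins. A single-probe test drops a marked spot.

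Probes, bins, profiles and regions were each tested with limma 3.58.1 (R 4.3.3) on the whole array, with Benjamini-Hochberg adjustment at 0.05, and values per array with exact permutation tests. The scripts were tested on simulated data. The number of arrays limits the precision. The members and lists were chosen with earlier results of these data known. Stretches named are the 15 with most probes. Bins named are the 6 highest and 6 lowest by level, and the 8 largest rises and falls past the threshold without overlap (5 for profiles), filled by smallest unadjusted p among bins of at least 3 probes. Probes named are the 5 of smallest p per direction, and further stretches were named after their values were seen. Alternatives covered background correction, normalization, centring, filters, bin size, blocks and leaving out each array.

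The authors' deposited log2 values came as a further table, whose making is not given in the sources used here. Its array medians were -0.006 to 0.027 and over 6105 stretch probes the correlation with the scanner ratio of the same array was 0.83 to 0.87, which sets the direction. Its smoothing and exact scale stay unknown.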

Additional observations from a re-analysis of the deposited data

How the results depend on the processing

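The direction of the mean change, the gap to other regions, the SD within stretches and the gap between high and low bins was the same in every alternative run, and no exact permutation test could pass 0.05 in any. Calls of bins, profile bins, stretches and probes (229, 24, 3 and 158) depended on the setting. Under normexp, scale and quantile normalization and with the authors' deposited values each count was 0, with 450, 196, 194 and 152 bins higher at an unadjusted p under 0.05 (limma). With each probe length centred the counts were 0, 2, 0 and 0 (259 bins unadjusted), with loess 96 (14 lower), 14 (7 lower), 0 and 101 (11 lower), and with centring on probes unmarked on all arrays 89 bins (4 lower), 1 stretch and 87 probes (1 lower). Without the filter on dim probes they were 111, 8, 2 and 0, with both channels well above background 12, 2, 0 and 0, and with marked spots kept 9 stretches passed. The scanning day as a block gave 390 (9 lower), 159 (70 lower), 7 and 668 (40 lower), and the slide as a random block 32, 6, 0 and 2 (correlation 0.57). That correlation came from the region means of the control arrays and was used for bins and probes too. Control 1 was scanned on another day than control 2 and control 3, so slide and day cannot be told apart in it. Bins of 2 kb gave 11 profile bins. Leaving out 1 array in turn gave 0 to 241 bins, 0 to 51 profile bins, 0 to 3 stretches and 0 to 305 probes. Of the 229 bins, 85 were still called with centring on probes unmarked on all arrays and 71 with loess. With 5 arrays and probes unmarked on those 5, chosen after seeing the data like the single-length probes and the regions of 21 to 100 probes, 55 profile bins and 6 stretches passed. The cause of these differences was not tested.

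The replicate block gave 404 bins, 0 profile bins, 14 stretches and 548 probes. Same-numbered arrays correlated at -0.05, 0.08 and -0.20 in their deviations from the group means, and 1 of 3 control arrays correlated best with its own number. No pairing by number was visible, and 3 pairs of arrays are too few to decide whether there is one. The difference between ends and interiors changed sign to 0.0138 without the filter on dim probes, 0.0152 with both channels well above background, 0.0082 with marked spots kept, 0.0071 with 2 kb bins and 0.0121 with 5 arrays. Dim signal limits the low bins: in 46 of 1901 no probe was well above background in the controls. Only 133 of the 609 low bins had every probe well above background in both groups.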
